A study of Mus musculus with 346 samples.

Results

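Expression of 10 transcription factors of the neural crest and of peripheral glia was described in single cells of the mouse mammary gland at 3 ages. The 10 genes were Sox10, Sox2, Foxd3, Pax3, Tfap2a, Pou3f1, Egr2, Zfp536, Rxrg and Nfatc2. They were chosen as a named list, by gene symbol matched to the Entrez number of each count, and not by a threshold on any value. All 10 were found among the 27179 genes measured.

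The cells came from female mice of the inbred strain FVB/NJ, with no transgene or treatment given, and were sorted as total epithelium after cells carrying blood and endothelial markers had been removed. The labels give 144 Pre-puberty cells from mice of 2 weeks, 136 Puberty cells from mice of 4.7 to 4.9 weeks and 66 Adult cells from mice of 10 weeks. Each cell was caught on a Fluidigm C1 chip, which lyses a cell in its own chamber and amplifies its polyadenylated RNA, and read pairs were counted per gene. The series' design text gives 8 mice at each stage and the study's text gives other numbers, but the labels tie no cell to a mouse, so each stage was treated as 1 sample and no test was made between stages. Cells with fewer than 100000 reads or 1500 genes were set aside, which left 116 Pre-puberty, 119 Puberty and 44 Adult cells with median depths of 296600, 574825 and 334667 reads.

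Levels are given as counts per 1000000 reads (CPM) of a stage's summed reads, and between genes as RPKM, which also divides by gene length in kilobases. Shares of cells were taken after each cell had been thinned at random to 100000 reads, so that the number of reads was equal. The median number of genes detected after thinning still differed, at 2868, 2705 and 2142 in Pre-puberty, Puberty and Adult cells. Square brackets hold 95% intervals, exact Poisson for CPM and exact binomial (Clopper-Pearson) for shares, and they cover counting error only, not the spread between mice, sorts or chips. Amplified copies of a molecule were counted separately, so the reads behind a level are not independent molecules.

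Neural crest cells leave the dorsal neural tube in the embryo and give rise to Schwann cells, melanocytes, peripheral neurons and other types. Sox10 is needed along the glial branch from crest cell to myelinating Schwann cell. Foxd3, Pax3, Tfap2a and Sox2 are used in crest cells, precursors and immature Schwann cells, and Sox2 and Pax3 are known to hold back myelination. Pou3f1 (Oct6) marks the promyelin stage and Egr2 (Krox20) is the factor that turns on the myelin genes together with Sox10. Zfp536 is a zinc finger repressor studied in neural cells, Rxrg is a retinoid X receptor and Nfatc2 is a calcineurin-dependent factor. Several of these genes are also used outside glia, Tfap2a in skin and mammary epithelium and Egr2 as an immediate early gene of stimulated cells.

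The label of the Pre-puberty cells was checked against marker lists. Of 11 epithelial genes, among them Epcam, Krt8, Krt14 and Cdh1, a Pre-puberty cell held a median of 0, against 8 in a Puberty cell and 6.5 in an Adult cell, and the summed level of the list was 494, 6574 and 6790 CPM. Basal cell genes were less far apart. Of 8, a median of 1 was held at both Pre-puberty and Puberty and of 5 in Adult cells. By the rule given further on, 1 of the 8 was called higher at Pre-puberty than at Puberty, 3 lower and 4 neither. Against Adult cells 0 were higher and 7 lower. Krt5 stood at 65.7, 46.1 and 207 CPM and Krt14 at 140, 224 and 829 CPM. Acta2 and Oxtr were in 31.0% and 30.2% of Pre-puberty cells, and a single cell gave 50.9% and 54.4% of their reads there. Of 12 immature Schwann cell genes a Pre-puberty cell held a median of 7.5, with a range of 3 to 10, and of 12 myelin genes a median of 5. The summed immature Schwann level was 11635 CPM at Pre-puberty, 253 CPM at Puberty and 676 CPM in Adult cells, and the summed myelin level 9651, 1275 and 199 CPM. The cells labelled as total epithelium at 2 weeks thus held few or none of the 11 epithelial genes in most cases and carried Schwann cell genes, and they are called Pre-puberty cells throughout. The study proposes an immature, basal-like state of the epithelium at this age, and draws also on protein images and single-cell westerns. The part of such a state, of the sort or of the label in these marker levels was not tested and cannot be told from the files. Each ratio between stages in the text compares groups with different cell type markers, so age and cell type cannot be told apart in it. The 8 fibroblast genes did not share a direction. Against Puberty 3 were called higher at Pre-puberty by the rule given further on, the collagens Col1a1, Col1a2 and Col3a1, and 2 lower, Dcn and Dpt, with a median log2 ratio of 0.03. Their summed level of 7553 CPM, against 1858 and 1347 CPM, was mostly Col3a1, at 5283 CPM. Their part in the levels described was not tested.

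A pair of libraries stood apart from their stage. Pre-puberty cell 41 held 7 of 8 fibroblast genes with 2400 reads of Dcn and 4555 of Col1a1, and no member. Puberty cell 52 held 9 of 12 myelin genes. Where a value rests on either cell, it is given with and without it. No 2 of the 279 kept cells held the same counts.

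Promoter sequence of 7 members was present in RefSeq windows of GRCm38.p6, the assembly of the files' mm10 build, which run from 250 bases before a transcript start to 50 after it. Egr2 is printed because it shares its stage order with the summed level of the immediate early genes described further on, though not with each of them. Sox2 is printed because it was the member with letters of the SOX motif. In Egr2 the capitals mark the CArG box, the 10-base element bound by serum response factor in many immediate early genes, searched on both strands. In Sox2 they mark ACAAAG, which with ACAATG stood for the SOX motif on both strands.
Egr2, chr10:67537316-67537615 (+): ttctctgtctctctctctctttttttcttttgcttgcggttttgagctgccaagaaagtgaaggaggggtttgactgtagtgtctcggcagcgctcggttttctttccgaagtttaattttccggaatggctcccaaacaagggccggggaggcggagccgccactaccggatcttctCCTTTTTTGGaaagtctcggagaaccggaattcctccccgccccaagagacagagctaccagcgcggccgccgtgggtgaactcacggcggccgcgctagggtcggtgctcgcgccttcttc
Egr2, chr10:67537680-67537979 (+): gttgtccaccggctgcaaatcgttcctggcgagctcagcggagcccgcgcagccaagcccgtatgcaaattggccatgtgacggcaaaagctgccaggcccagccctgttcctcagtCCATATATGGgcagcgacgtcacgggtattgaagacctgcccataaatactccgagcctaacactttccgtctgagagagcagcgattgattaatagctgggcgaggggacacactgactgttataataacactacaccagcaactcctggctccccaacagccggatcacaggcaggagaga
Sox2, chr3:34649745-34650044 (+): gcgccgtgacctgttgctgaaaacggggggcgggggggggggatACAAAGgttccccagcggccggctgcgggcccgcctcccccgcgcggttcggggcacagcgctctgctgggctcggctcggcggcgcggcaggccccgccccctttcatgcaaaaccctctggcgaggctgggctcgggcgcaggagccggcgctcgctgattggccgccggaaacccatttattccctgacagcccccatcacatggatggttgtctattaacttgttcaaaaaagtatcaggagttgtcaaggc

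A CArG box was present in 4 of the 5 Egr2 windows, of which 3 overlap, and in 1.63% of all 32851 windows. None of the other 9 member windows held one, nor did the windows of the 8 immediate early genes that had any. The SOX letters were present in 28.6% of all windows and in the Sox2 window alone among the 14 of the members. GCGNGGGCG, the EGR motif, was in 5.55% of all windows and in none of the members' windows. GCCNNNGGC, the AP-2 motif, was in 16.6% of all windows and in 1 Egr2 window. A match describes the letters only.

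**Figure D1:**
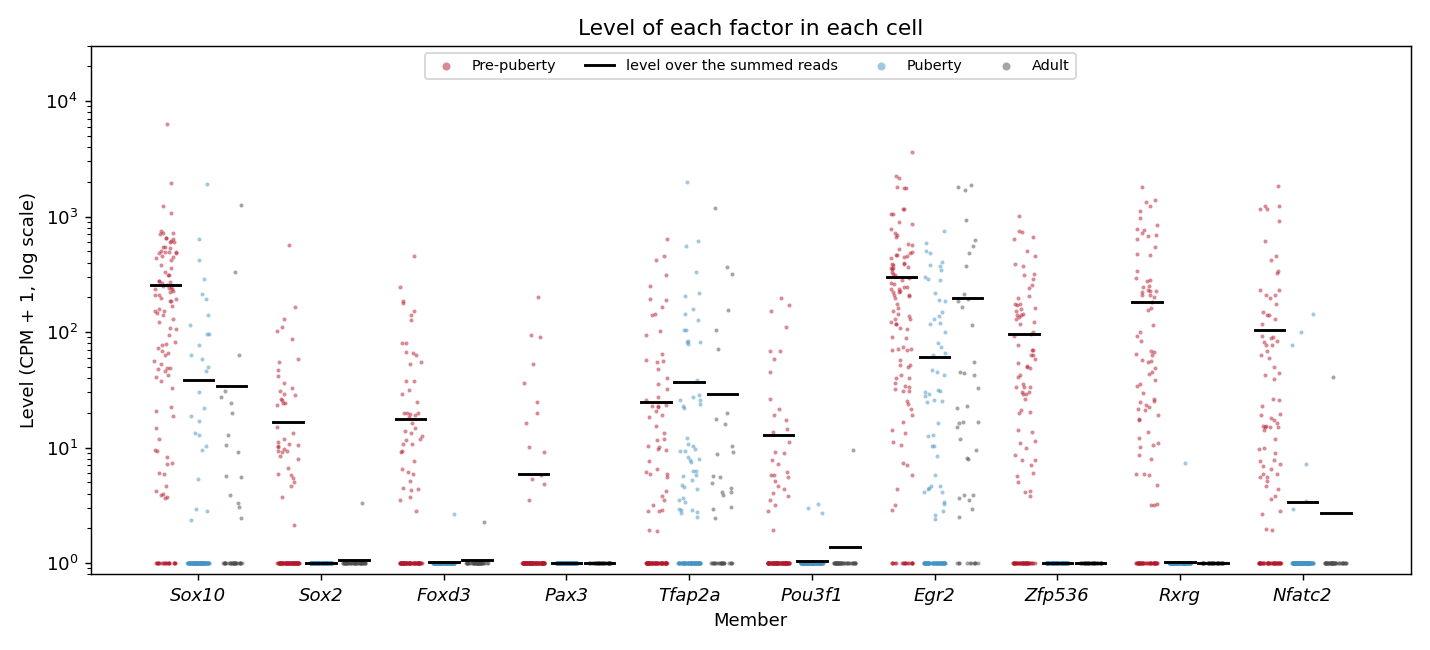
Level of the 10 factors in each kept cell, as CPM + 1 on a log axis, with Pre-puberty in red, Puberty in blue and Adult in grey; the black bars are the levels over the summed reads of a stage. Zfp536, Rxrg, Sox2, Foxd3 and Pax3 lie at or near the floor at Puberty and Adult, while Tfap2a and Egr2 hold values at every stage.

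At Pre-puberty the order of the 10 members per length was Egr2 at 101 RPKM, Sox10 at 93.2, Rxrg at 76.9, Zfp536 at 21.4, Nfatc2 at 12.3, Tfap2a at 7.32, Foxd3 at 7.09, Sox2 at 6.36, Pou3f1 at 3.93 and Pax3 at 1.26. The myelinating factor Egr2 and the pan-glial Sox10 thus led. Apart from Egr2, the factors of the crest and immature role and Pou3f1 filled the lower places, each at 7.32 RPKM or less. Every member was uneven over cells, with a lowest value of 0 CPM in each.

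Sox10, the pan-glial member (chr15:79154913-79164490, minus strand), ranged over Pre-puberty cells from 0 to 6276 CPM with a median of 114. Over the summed reads it stood at 253 CPM [248 to 258], from 10292 read pairs, and 88 of 116 thinned cells held it, 75.9% [67.0 to 83.3]. At Puberty the cells ranged from 0 to 1924 CPM with a median of 0, the level was 37.4 CPM, and 22 of 119 cells held it (18.5% [12.0 to 26.6]). Adult cells ranged from 0 to 1246 CPM with a median of 0, at a level of 32.8 CPM, and 10 of 44 held it (22.7% [11.5 to 37.8]). The ranges of cells overlapped at all 3 stages, while the share intervals of Pre-puberty lay above both others. The ratio of levels was 6.76-fold over Puberty and 7.71-fold over Adult. Single cells carried much of the later reads. Puberty cell 52, the cell with myelin genes, gave 1034 of 2562 read pairs, and without it the level was 22.5 CPM. Adult cell 65 gave 410 of 613, with 738 reads of Epcam and 2338 of Krt18, and without it the level was 11.1 CPM.

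The crest and immature factors fell into 3 that were close to absent at the later stages and Tfap2a, which was not. Foxd3, a forkhead factor of crest cells and glial precursors (chr4:99656299-99658671, plus strand), ranged from 0 to 458 CPM over Pre-puberty cells with a median of 0. An exon of Foxd3 overlaps Gm23366 on the same strand, and reads of the 2 genes may be split there. Its level was 16.8 CPM [15.6 to 18.1] and 38 of 116 cells held it (32.8% [24.3 to 42.1]). A total of 1 read pair was counted at Puberty and 1 in Adult cells, ratios of 1153-fold [206 to 45588] and 315-fold [56.3 to 12443]. The wide intervals show how little a few reads fix such a ratio.

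Sox2, which keeps Schwann cells immature (chr3:34649995-34652461, plus strand, inside the span of the noncoding gene Sox2ot), ranged from 0 to 565 CPM with a median of 0 and stood at 15.6 CPM [14.4 to 16.9]. It was in 28 of 116 cells, 24.1% [16.7 to 33.0]. Cell 139 gave 250 of its 636 read pairs, and without that cell the level was 9.59 CPM. No Puberty cell held a read and the 44 Adult cells held 1, so the Pre-puberty level was at least 357-fold above Puberty, taken against a floor of 3 reads over the stage, and 292-fold above Adult [52.2 to 11554].

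Pax3, a paired box factor of crest and immature glia (chr1:78101267-78197136, minus strand), was the rarest member. Cells ranged from 0 to 198 CPM with a median of 0, the level was 4.89 CPM [4.23 to 5.62], and 12 of 116 cells held it (10.3% [5.46 to 17.4]). Cell 110 gave 70 of 199 read pairs, and without it the level was 3.20 CPM. No read was counted at either later stage, which puts Pre-puberty at least 112-fold above Puberty and at least 30.5-fold above Adult. In shares, 0 of 119 cells allows up to 2.52% of Puberty cells and 0 of 44 allows up to 6.82% of Adult cells by a limit of 3 counts, and the exact binomial intervals reach 3.05% and 8.04%.

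Tfap2a, an AP-2 factor of crest and of surface epithelia (chr13:40713802-40738238, minus strand), had another pattern. It ranged from 0 to 640 CPM at Pre-puberty, from 0 to 1998 at Puberty and from 0 to 1177 in Adult cells, with medians of 0, 0 and 0.718 CPM. Its levels were 23.9 CPM [22.4 to 25.5], 36.0 [34.6 to 37.5] and 28.1 [25.8 to 30.6]. The shares were 33.6%, 28.6% and 31.8%, and their intervals overlapped at all 3 stages. Exons of Tfap2a overlap 3 GENCODE genes on the other strand, and the library kit does not mark strand, so reads of those genes cannot be told apart.

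Of the promyelin and myelinating pair, Pou3f1, a POU factor (chr4:124657646-124660655, plus strand), ranged from 0 to 194 CPM over Pre-puberty cells with a median of 0. Its level was 11.8 CPM [10.8 to 12.9], and 20 of 116 cells held it (17.2% [10.9 to 25.4]). The later stages gave 3 read pairs at Puberty, in 3 cells, and 7 in Adult cells, all in cell 42. Pre-puberty was thus 270-fold [91.8 to 1313] and 31.6-fold [15.2 to 78.9] higher. An exon of Pou3f1 overlaps Gm2164 on the other strand.

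Egr2, the zinc finger factor of myelination (chr10:67534469-67542188, plus strand), was the most widely detected member at all 3 stages. Pre-puberty cells ranged from 0 to 3612 CPM with a median of 129, Puberty cells from 0 to 755 with a median of 0, and Adult cells from 0 to 1875 with a median of 15.5. The levels were 299 CPM [293 to 304], 60.4 [58.6 to 62.3] and 198 [191 to 204], which is 4.94-fold higher at Pre-puberty than at Puberty but 1.51-fold higher than in Adult cells. The shares were 81.9% [73.7 to 88.4], 36.1% [27.5 to 45.4] and 59.1% [43.2 to 73.7]. The last 2 intervals overlapped.

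Zfp536, the repressor (chr7:37318023-37774039, minus strand), ranged from 0 to 1008 CPM at Pre-puberty with a median of 11.5, at a level of 94.5 CPM [91.6 to 97.6]. It was held by 66 of 116 cells (56.9% [47.4 to 66.1]). No read pair was counted in the 119 Puberty and 44 Adult cells, against 3848 at Pre-puberty, a level at least 2158-fold above Puberty and at least 589-fold above Adult. Of the 10 members, Zfp536 and Pax3 had no read at either later stage.

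Rxrg, a partner of other nuclear receptors (chr1:167598362-167639623, plus strand), ranged from 0 to 1789 CPM with a median of 17.4 and stood at 182 CPM [178 to 186]. It was also in 66 of 116 cells. At Puberty 1 read pair was counted, in cell 64, a ratio of 12451-fold [2234 to 491845], and in Adult cells none, a ratio of at least 1133-fold.

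Nfatc2, the calcineurin-dependent member (chr2:168476410-168601657, minus strand), ranged from 0 to 1849 CPM with a median of 5.77, at 103 CPM [99.5 to 106], and was in 57 of 116 cells (49.1% [39.7 to 58.6]). Puberty gave 165 read pairs in 6 cells, 76 of them in cell 55, which held 308 reads of Epcam, and without it the level was 1.31 CPM in place of 2.41. All 32 Adult read pairs were in cell 58. The level was 42.6-fold [36.4 to 50.1] and 59.9-fold [42.4 to 87.7] higher at Pre-puberty.

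Nfatc2 was also the member that differed most within Pre-puberty. Cells numbered 1 to 37, of which 12 were kept, were deeper (median 937028 reads) than cells 38 to 144, of which 104 were kept (283483 reads). This is a split seen in depth, and the labels name no batch. Nfatc2 stood at 7.52 CPM in the first block and at 136 CPM in the second, and was in 2 of 12 against 55 of 104 thinned cells, 16.7% [2.09 to 48.4] and 52.9% [42.8 to 62.8]. Tfap2a was also lower in the first block, at 7.90 against 29.5 CPM, and so was Sox10, at 142 against 291 CPM, while Pou3f1 was higher, at 20.8 against 8.71 CPM. For each of the 10 members the share intervals of the blocks overlapped.

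**Figure D2:**
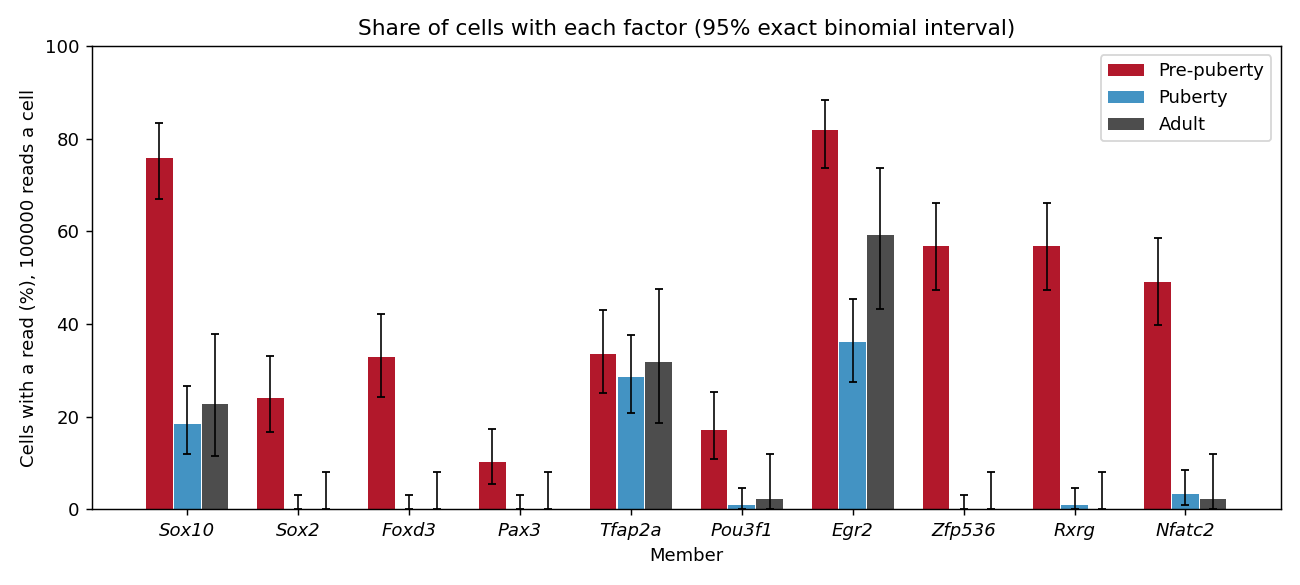
Share of cells with at least 1 read of each factor after thinning to 100000 reads a cell, by stage, with exact 95% binomial intervals as error bars. The Pre-puberty interval lies above the Puberty one for each factor except Tfap2a, for which the 3 stages overlap.

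The background of stage differences was wide. A gene was called different between stages when its log2 ratio, after 5 CPM had been added to both levels, was 1 or more in size and its level reached 10 CPM at either stage. Between Pre-puberty and Puberty 21.4% of 9868 such genes were called higher at Pre-puberty and 24% lower. Of the members 9 reached the minimum, all but Pax3, with 8 higher and 0 lower. Between Pre-puberty and Adult 31.7% of genes were called higher and 28.9% lower, and of 9 members 7 were higher and 0 lower. Sox2, Foxd3, Pou3f1, Zfp536, Rxrg and Nfatc2 reached the minimum through their Pre-puberty level alone, which by itself favours a call in that direction, and these counts lend the list no support. The median log2 ratio over all 10 members was 2.17 against Puberty and 2.07 against Adult, beside -0.12 and 0.03 over all genes tested. With 20 CPM added the counts were 5 and 4. The counts were 8 and 7 without Pre-puberty cell 41 and Puberty cell 52.

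Between Puberty and Adult 3 members reached the minimum, where 28.4% of genes were higher at Puberty and 20.6% lower. None of the 3 was higher at Puberty, and Egr2 was lower, at a log2 ratio of -1.63. Sox10 stood at 0.17 and Tfap2a at 0.31.

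How the 10 factors shared cells was then described. A thinned Pre-puberty cell held a median of 5 members, with quartiles of 3 and 5 and a range of 0 to 8, and 101 of 116 cells held at least 3. Puberty and Adult cells held a median of 1. At least 3 members were found in 4 of 119 Puberty cells and in 2 of 44 Adult cells, and each of these 6 cells held the same combination, Sox10, Tfap2a and Egr2. They were Puberty cells 28, 39, 78 and 135 and Adult cells 33 and 39, with 33 to 2445 reads of Epcam each and at most 1 read of Cdh19. The 7 members other than Sox10, Tfap2a and Egr2 were found, any of them, in 107 of 116 Pre-puberty cells (92.2% [85.8 to 96.4]), 6 of 119 Puberty cells (5.04% [1.87 to 10.7]) and 2 of 44 Adult cells (4.55% [0.555 to 15.5]). Presence at the later stages thus rested on Sox10, Tfap2a and Egr2.

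**Figure D3:**
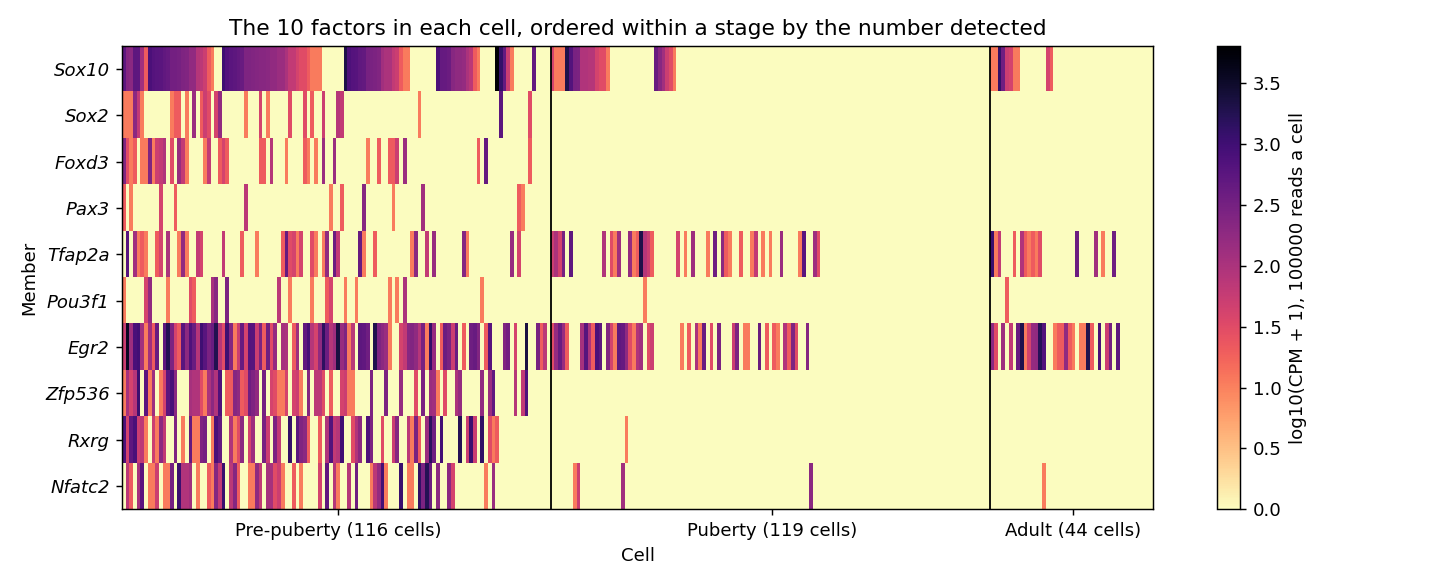
Each column is a kept cell and each row a factor, coloured by log10(CPM + 1) after thinning to 100000 reads, with cells ordered within a stage by the number of factors detected. Pre-puberty cells hold varied combinations, while Puberty and Adult cells show Sox10, Tfap2a and Egr2 and little else.

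The immature and the myelinating roles were not kept to separate cells. Of 116 Pre-puberty cells, 65 held at least 1 of Sox2, Foxd3, Pax3 and Tfap2a together with Pou3f1 or Egr2 (56.0% [46.5 to 65.2]). Immature factors alone were found in 9 cells (7.76%), myelinating factors alone in 35 (30.2%) and neither in 7 (6.03%). Since Egr2 was in 95 of the 116 cells, this overlap largely follows its wide detection. Sox2 was found with Egr2 in 25 of 28 cells, 89.3% [71.8 to 97.7], and Egr2 in 70 of the 88 cells without Sox2, 79.5% [69.6 to 87.4]. Sox2 and Pou3f1 were together in 5 cells. Sox2 was in 5 of 20 cells with Pou3f1 (25.0% [8.66 to 49.1]) and in 23 of 96 without it (24.0% [15.8 to 33.7]), and the width of these intervals leaves a large difference in either direction undetectable.

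The classes were also compared in what the rule did not use. The summed myelin level had a median of 6780 CPM in cells with both roles, 3600 in the 9 with immature factors alone, 7330 in the 35 with myelinating factors alone and 6420 in the 7 with neither. The quartiles of cells with both roles, 4230 and 8580 CPM, overlapped those of each other class. The summed immature Schwann level had medians of 10870, 9680, 11330 and 13180 CPM in the same order, so the class without either role held both sets of genes as well.

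**Figure D4:**
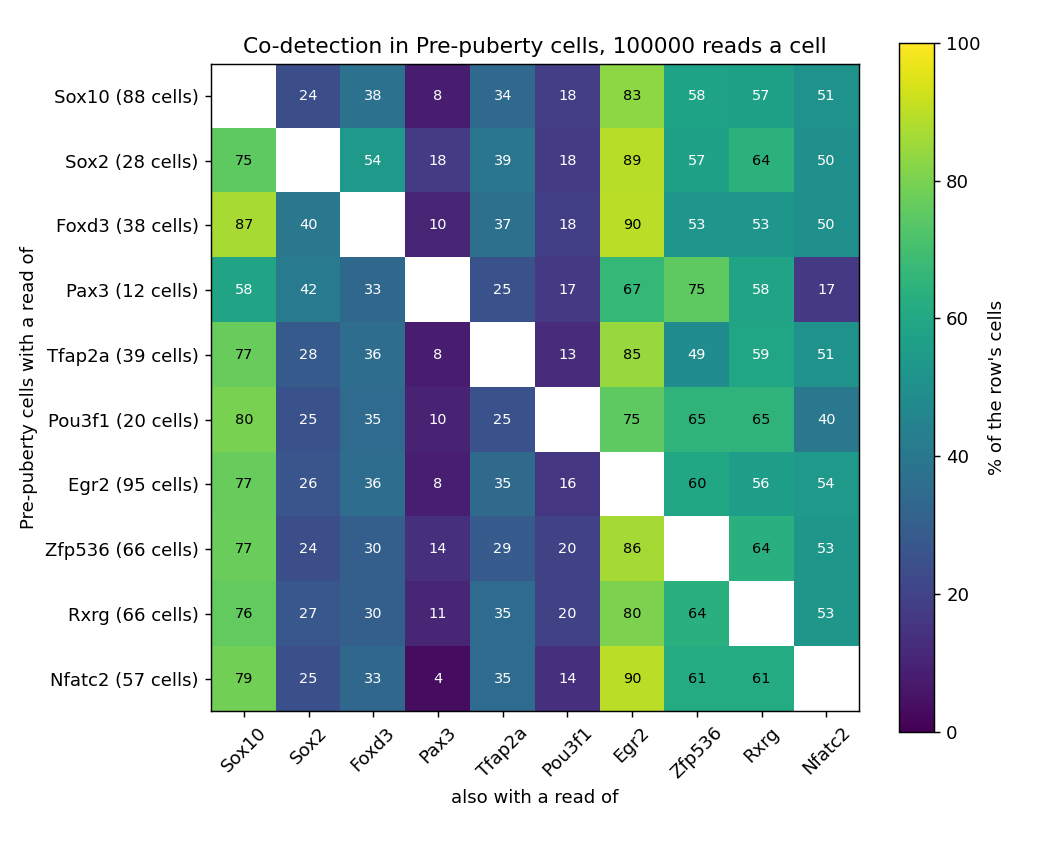
Percent of the Pre-puberty cells with a read of the row's factor that also held a read of the column's factor, after thinning to 100000 reads. Columns are nearly uniform from row to row, with Egr2 and Sox10 high in each and Pax3 low; of the Sox2 cells 54% held Foxd3, and of the Pax3 cells 17% held Nfatc2.

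Over all pairs of members, the share of a factor in cells with another factor and in cells without it had overlapping intervals in every case. Several of the wider gaps involved Foxd3 and Pax3. Foxd3 was in 15 of 28 cells with Sox2 (53.6% [33.9 to 72.5]) and in 23 of 88 without (26.1% [17.3 to 36.6]). Pax3 was in 2 of 57 cells with Nfatc2 (3.51% [0.428 to 12.1]) and in 10 of 59 without (16.9% [8.44 to 29.0]). Foxd3 was in 33 of 88 cells with Sox10 (37.5%) and in 5 of 28 without (17.9%). Correlations of log2 levels over the 116 cells ran from -0.14 to 0.18 for the 45 pairs, with a median of 0.01. The cells share a stage and sparse counts, so these values are descriptions. By interval overlap and these correlations, no joint variation of the 10 factors within Pre-puberty was seen at this depth. Overlapping intervals can hide a difference, and the association of pairs was not tested.

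The genes most like each member were sought among those detected in at least 25% of Pre-puberty cells, with Pearson's r over 116 cells. No gene reached 0.5 for Sox10, Foxd3, Tfap2a, Egr2, Zfp536, Rxrg or Nfatc2, and Sox2, Pax3 and Pou3f1 were in too few cells for the search. Over all 279 cells, where stage differences enter, 44 genes reached 0.5 with Sox10. Among the first 5 were Aatk (0.60), Matn2 (0.59), Cd59a (0.59) and Gpm6b (0.58).

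Set beside the marker lists within Pre-puberty, Sox10 moved most with Schwann genes. Cells with Sox10 had a median summed myelin level of 7295 CPM (quartiles 5168 and 11160), against 3860 CPM (2685 and 5868) in the 28 cells without, with r = 0.34 over 116 cells, and r = 0.34 with the immature Schwann list. Rxrg followed with r = 0.23 and Pou3f1 with 0.17 against the myelin list. Egr2, the myelinating factor, had r = 0.07 with the myelin list and 0.30 with 12 immediate early genes such as Fos, Jun and Egr1. Cells with Egr2 had a median summed immediate early level of 14280 CPM (quartiles 9420 and 18985) and the 21 cells without it 10290 CPM (4150 and 14930). Foxd3 also went with that list, at r = 0.22, with medians of 17495 and 12115 CPM. Over the stages the summed list stood at 13996, 4711 and 11196 CPM, the order of Egr2, but its genes did not share that order. Fos, Jun, Egr1 and Dusp1 had it. Fosb, Junb, Ier2, Atf3, Nr4a1 and Arc were highest in Adult cells, and Btg2 and Egr3 fell from stage to stage. Egr1 alone, of the same zinc finger family as Egr2, stood at 4642, 662 and 2101 CPM. The part of cell dissociation or handling in these levels was not tested.

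**Figure D5:**
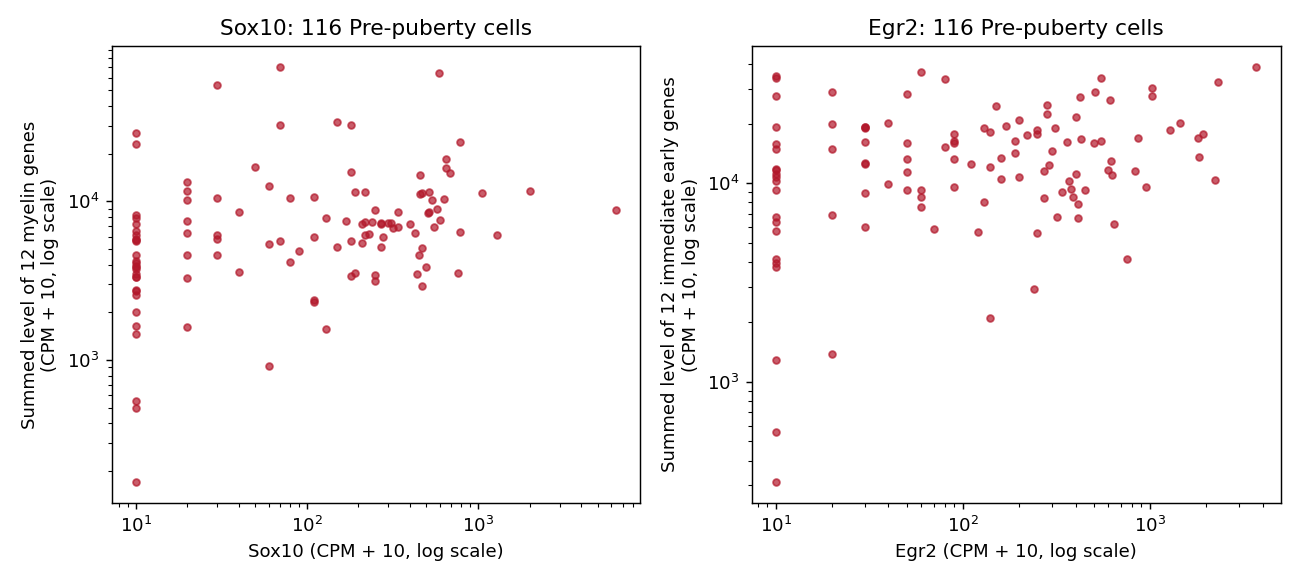
Pre-puberty cells by Sox10 level against the summed level of 12 myelin genes (left) and by Egr2 level against the summed level of 12 immediate early genes (right), each as CPM + 10 on log axes after thinning. Cells without the factor stand in the column at 10; both clouds are broad, with r = 0.34 and r = 0.30 over 116 cells.

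At the later stages the kinds of epithelial cells that held Egr2 and Sox10 were described by their markers, after thinning. Egr2 went with basal cell genes. Of 43 Puberty cells with Egr2, 30 held the basal keratin Krt14 (69.8% [53.9 to 82.8]), against 15 of 76 without (19.7% [11.5 to 30.5]). Acta2, smooth muscle actin of myoepithelial cells, was in 36 of 43 (83.7%) against 29 of 76 (38.2%), and Trp63, a basal transcription factor, in 15 of 43 (34.9%) against 6 of 76 (7.89%). Pgr, the progesterone receptor of mature luminal cells, was in 4 of 43 (9.30%) against 25 of 76 (32.9%). The intervals did not overlap in these 4 comparisons. Nor did they for the basal keratins Krt5 (21 of 43 against 11 of 76) and Krt17 (27 of 43 against 7 of 76). In Adult cells the intervals of Krt5, in 13 of 26 cells with Egr2 against 1 of 18 without, and of Acta2, in 22 of 26 against 6 of 18, did not overlap. They overlapped in Adult cells for Krt14 (22 of 26 against 10 of 18), Trp63 (8 of 26 against 2 of 18) and Pgr (8 of 26 against 7 of 18). They also overlapped there for Krt17 (19 of 26 against 5 of 18). Of the Puberty differences above, those of Acta2 and Krt5 were thus also apart in Adult cells.

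Grouped by keratins, the Egr2 level was 6.62 CPM in 67 Puberty cells with Krt8 or Krt18 but neither Krt5 nor Krt14, 116 CPM in 45 cells with both kinds and 262 CPM in 5 cells with the basal kind alone. Without the top cell of each class these were 3.92, 105 and 144.6 CPM. In Adult cells the level was 3.46 CPM in 10 cells with luminal keratins alone and 260 CPM in 32 with both kinds, or 2.18 and 201 CPM without the top cell. Within the cells with both kinds of keratin, the level of Egr2 was thus lower at Puberty than in Adult cells, with and without the top cell. The shares of that class with Egr2 were close, at 30 of 45 (66.7% [51.0 to 80.0]) and 22 of 32 (68.8% [50.0 to 83.9]). Within the cells with luminal keratins alone, both levels lay below the minimum of 10 CPM, and the Adult one rested on 17 read pairs, so no order is drawn. In that class Egr2 was in 9 of 67 Puberty cells (13.4% [6.33 to 24.0]) and 2 of 10 Adult cells (20.0% [2.52 to 55.6]). The part of the mix of basal and luminal cells in the stage levels was not tested. Among Pre-puberty cells, Egr2 stood at 469 CPM in the 28 with Krt5 or Krt14 but no Krt8 or Krt18 (342 CPM without the top cell) and at 235 CPM in the 75 with none of these keratins, in 24 of 28 and 59 of 75 cells, with overlapping intervals. Sox10 ran the other way, at 162 and 308 CPM.

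Sox10-positive Puberty cells all held Epcam (22 of 22), as did 94 of the 97 without Sox10 (96.9%), and cell 52 was among the first with 11 Epcam reads. In Adult cells Epcam was in 9 of 10 with Sox10 and in 32 of 34 without. Ly6d, a marker of mature luminal cells, was in 4 of 22 (18.2% [5.19 to 40.3]) against 63 of 97 without Sox10 (64.9% [54.6 to 74.4]). For the other markers examined at Puberty, and for Ly6d in Adult cells (3 of 10 against 19 of 34), the intervals overlapped. Tfap2a was spread over keratin classes, in 19 of 67 Puberty cells with luminal keratins alone (28.4%) and 15 of 45 with both kinds (33.3%).

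Other transcription factors of the lineage were followed from fixed lists, counted by the same call. Among 6 negative regulators of myelination, 4 were called higher at Pre-puberty than at Puberty, 0 lower and 2 neither. Id2, an inhibitor of helix-loop-helix factors, stood at 467, 124 and 293 CPM over Pre-puberty, Puberty and Adult, Hes1, a Notch target, at 420 CPM in Pre-puberty cells and in 99.1%, 85.7% and 84.1% of thinned cells, and Sox6 at 126, 19.7 and 0.107 CPM. A single Puberty cell gave 97.5% of the Sox6 reads of that stage, and without it the level was 0.498 CPM. Jun, needed in immature and repair Schwann cells and also an immediate early gene, stood at 740, 381 and 545 CPM and was not called.

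Among 7 partners of myelination, 5 reached the minimum, with 2 called higher at Pre-puberty than at Puberty and 2 lower. Zeb2, a repressor needed for Schwann cells to myelinate, stood at 1010, 55.6 and 0.267 CPM, and leaving out its top Puberty cell, the source of 80.8% of reads there, gave 10.8 CPM. Yy1, which takes part in turning on Egr2 in Schwann cells, stood at 48.8, 72.2 and 19.7 CPM and was not called against Puberty. Nab1, a corepressor that binds Egr factors, ran the other way between the first 2 stages, at 46.0, 143 and 54.6 CPM, and so did Srebf1, a regulator of lipid synthesis, at 16.2, 46.5 and 47.8 CPM. Without the top cell the Adult levels of Nab1 and Srebf1 were 28.4 and 14.3 CPM. The list therefore did not share a direction.

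Of 11 further neural crest factors, 5 reached the minimum against Puberty, with 1 called higher at Pre-puberty and 2 lower. Ets1 was the higher, at 244, 78.9 and 37.9 CPM. Sox9, which is used in crest and in mammary epithelium, stood at 56.6, 1591 and 812 CPM and Tfap2b at 32.7, 138 and 140 CPM. Snai2 stood at 44.3, 65.8 and 14.9 CPM. Without the top cell the Adult levels of Ets1, Tfap2b and Snai2 were 15.3, 87.2 and 0.715 CPM, and the Pre-puberty levels of Tfap2b and Snai2 were 18.1 and 25.5 CPM.

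Of 10 family members of the named factors, 7 reached the minimum against Puberty, with 3 called higher at Pre-puberty and 1 lower. Egr1, given above, and Nfatc1 were among the higher, and Nfatc1 stood at 91.0, 13.1 and 75.6 CPM, and leaving out its top Adult cell, the source of 75.4% of reads there, gave 18.8 CPM. Tfap2c, an AP-2 factor of epithelium, was the lower, at 25.4, 90.5 and 61.2 CPM, and at 23.5 CPM in Adult cells without the top cell.

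Markers of the other crest derivatives summed to less than the Schwann cell lists at each stage, but were not absent. The 7 melanocyte genes summed to 60.3 CPM at Pre-puberty and 52.1 and 22.3 CPM later, with 0 reads of Tyr, the enzyme that starts melanin synthesis, at any stage. Dct stood at 20.0 CPM at Pre-puberty, in 5.17% of thinned cells, and at 0 CPM at both later stages. Mitf stood at 28.7, 22.0 and 0.0535 CPM. Without the top cell, Dct and Mitf stood at 7.79 and 8.03 CPM at Pre-puberty, and Mitf at 0.0443 CPM at Puberty. The 7 neuron genes summed to 26.4, 56.2 and 0.267 CPM, with 0 reads of Prph at Pre-puberty. Uchl1 stood at 23.0, 1.58 and 0.267 CPM and Snap25 at 0.295, 49.7 and 0 CPM.

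Cells with few members were looked at last. Of the 116 Pre-puberty cells, 5 held at most 1 member, namely cells 19, 41, 50, 52 and 78. Cell 41 is the fibroblast-gene cell named above. The other 4 each held Egr2 or Sox10 alone with 39 to 690 reads of Cdh19, and so carried Schwann genes without most of the 10 factors. Of the 17 Pre-puberty cells with a read of Epcam, the median number of members was 5, the same as in the 99 without.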

How the data were processed

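The deposited files give, for each of 346 cells, whole-number counts of read pairs per Entrez gene and a gene length in bases (an other, non-expression value). Per the study's methods and the labels, the authors mapped Nextera XT libraries to mm10 with Subread 1.4.6, and featureCounts assigned the pairs to the RefSeq genes supplied with Rsubread. The strand setting and the treatment of reads shared by similar genes are not given in the sources used here. A table of the whole series repeats these counts and was not used.

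Of 27179 genes, 25275 matched RefSeq (GRCm38.p6) by Entrez number. As in the study, the 1904 others, 15 mitochondrial and 120 ribosomal genes were removed, leaving 25140. They held 1.10%, 4.47% and 0.693% of Pre-puberty reads, 1.60%, 12.4% and 1.45% of Puberty reads, and 1.28%, 15.9% and 1.82% of Adult reads, so totals were taken without them. Cells with at least 100000 reads and 1500 genes were kept, the study's filter. No doublet caller was run.

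Reads were summed by stage, since the labels name no mouse. Thinning to 100000 reads used seed 1. Correlations are Pearson's r on log2 of thinned CPM + 10. Shares with no positive cell are given the limit that 3 counts set. The ratio and thinning steps were tested on simulated data. Python 3.11.15, numpy 2.4.6, pandas 2.3.3, scipy 1.17.1, matplotlib 3.10.9, and R 4.3.3 with edgeR 4.0.16 (TMM factors as an alternative scaling) were used. The alternatives were the added constant, cell weights, scaling, filters, thinning and the cell call.

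The members and gene lists were chosen with earlier results of these data known. All 10 members are named. Other factors are named by the largest CPM within each list. The genes of the closest pattern are the 5 with the largest r, where r was 0.5 or more. A few genes of the marker lists and of the closest pattern are not reported here by name. Later cells are named when they held 3 or more members or the most reads of a member, and Puberty cell 52 and Pre-puberty cell 41 were left out as an alternative chosen after seeing the data.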

Additional observations from a re-analysis of the deposited data

Results flagged for a closer look

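The 28 Pre-puberty cells below the depth and gene minimum, which entered no comparison, also carried the factors. They held 532403 reads in all, and the 10 members summed to 654 CPM [587 to 726], beside 1003 CPM in the kept Pre-puberty cells and against a limit of 5.63 CPM for 3 reads. Egr2 stood at 314 CPM and Sox10 at 92.0 CPM in them, from 167 and 49 read pairs, and all 10 members had at least 3 read pairs. The 17 Puberty and 22 Adult cells below the minimum summed to 175 and 319 CPM, with reads of Tfap2a and Egr2 at Puberty, of these and Sox10 in Adult cells, and of no other member.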

How the results depend on the processing

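No stage was replicated by labelled mice, so no result was tested, and values shared by cells of a mouse, sort or chip cannot be told apart from the stage. No paired analysis was possible because the cell numbers that recur at each stage name cells and no result comes from a test. With 20 CPM added before the log2, 5 members in place of 8 were higher at Pre-puberty than at Puberty and 4 in place of 7 than in Adult cells. The other alternatives gave 6 to 8 and 5 to 7. The share of Pre-puberty cells with Sox10 was 75.9% and became 62.1% with at least 5 thinned reads, 50.0% above 40 RPKM and 66.7% in cells 1 to 37. The share with an immature and a myelinating factor was 56.0% and became 68.1% without thinning, 45.8% at 50000 reads, 22.4% with at least 5 reads and 13.8% above 40 RPKM, so it depends strongly on what counts as detected. The median number of members was 5 and became 2 above 40 RPKM. Of 390 log2 ratios of single members over 13 alternatives, 300 stayed within 0.25, 90 moved further and 0 of those called changed sign. Without Pre-puberty cell 41 and Puberty cell 52, the log2 ratio of Sox10 over Puberty moved from 2.60 to 3.24. Ratios of members with few later reads are limited by depth.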
